A study of Mus musculus with 18 samples.

Results

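Chemokines and their receptors were followed in mouse dorsal skin as 48 genes, 32 ligands and 16 receptors, out of 18193 genes that the array's annotation names singly. They were taken by symbol alone: every probe set whose only gene symbol is Ccl, Cxcl, Cx3cl, Xcl, Ccr, Cxcr, Cx3cr or Xcr followed by digits, 76 probe sets in all, with each gene represented by the probe set of highest mean over the 18 arrays. Of the 48, 24 genes (20 ligands and 4 receptors) had a measured range; the other 24 moved by no more than 0.00108 on the log2 scale over all 18 arrays at their representative probe set, which carries no information here (of these genes, Ccr2 had another probe set that varied, given further on). The constant genes were Ccl1, Ccl4, Ccl5, Ccl17, Ccl20, Ccl25, Ccl28, Cx3cl1, Cxcl11, Cxcl15, Cxcl17 and Xcl1 among the ligands, and Ccr1, Ccr2, Ccr3, Ccr4, Ccr6, Ccr7, Ccr8, Ccr10, Cx3cr1, Cxcr2, Cxcr3 and Cxcr5 among the receptors. Over the whole array 6842 of the 18193 genes varied.

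All mice were male albino hairless HR-1 mice, a strain that loses its coat, so the skin sampled lacked normal hair. Their age is given as 6 weeks in all 3 groups, and is not taken here as the age at sampling. The first group (NT, 6 arrays) had dorsal skin that was not stripped. The second (TS, 6 arrays) had its left dorsal skin stripped with cellophane tape in 3 sessions weekly over 4 weeks, each session ending once water loss through the skin reached 70 to 100 g/m2/h. The third (WB, 6 arrays) had the same stripping plus oral winged bean extract at 200 mg/kg per day, dissolved in 0.3% carboxymethylcellulose and dosed on 5 occasions weekly over 5 weeks, beginning 1 week before the tape. The labels do not say whether NT and TS mice were given the carboxymethylcellulose alone. Comparing TS with NT asks how repeated damage to the skin barrier changed chemokine RNA, and comparing WB with TS asks what differed in stripped skin when the extract was given; there was no group given the extract without stripping. Array titles call the samples biological replicates without naming the animals, so the tests measure the spread between these samples.

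Chemokines are small secreted proteins that form gradients on cells and matrix, and leukocytes carrying the matching G protein-coupled receptor move up the gradient. In skin, keratinocytes, fibroblasts, vessel cells and resident macrophages all make them, and each ligand group draws a different set of cells: the ligands of Cxcr2 draw neutrophils, those of Ccr2 and Ccr1 draw monocytes, those of Cxcr3 draw activated T cells, and the eotaxins draw eosinophils. Other members, among them Cxcl12 with its receptor Cxcr4, act in undisturbed tissue as well.

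Values are log2 levels as deposited, in which a difference of 1 is a doubling, and groups are given as the lowest, the median and the highest of 6 arrays or as mean with SD. A gene was called higher or lower when its adjusted p in limma (lmFit and eBayes, Benjamini-Hochberg over 45037 probe sets) was under 0.05 and its difference at least 0.01. No label states the log base, on which folds rest, and no fold is given where the lower group mean lay under the mean of the array medians (6.94 in NT and TS, 6.90 in WB). Since these are bulk samples, fewer cells of a type and less RNA per cell cannot be told apart. The control probe sets for the ends of a transcript differed between the groups. The 3' minus 5' difference of beta-actin, commonly read as a sign of RNA quality or labelling, in NT was -0.51 ± 0.10 (SD, n = 6), against 0.16 ± 0.07 in TS and 5.69 ± 0.25 in WB, with no overlap between any groups (exact two-sided permutation test, p = 0.00216 for each pair, adjusted p = 0.0026 over 6 tests, the smallest p that 6 against 6 can give being 0.00216). For Gapdh it was -0.59 ± 0.11, -0.44 ± 0.11 and 3.70 ± 0.36. The 14 macrophage and monocyte marker genes, all of which varied, averaged 10.33 to 10.96 per NT array; the TS arrays were at 9.67 to 10.09 and those of WB at 8.50 to 8.68. The part of these differences in the results on chemokines was not tested. Array NT 5 stood apart by 10 liver genes, which averaged 14.92 on it and 7.24 to 7.39 on the other NT arrays; without it the counts of members called were the same in all 3 comparisons. The keratinocyte markers of the labelled tissue were high on all arrays, averaging 11.50 to 12.67 per array.

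**Figure D1:**
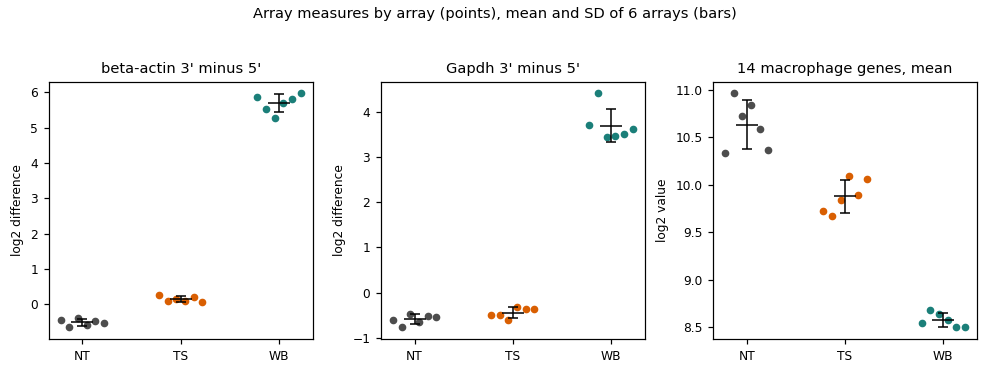
Control differences and a cell marker mean on each of the 18 arrays: the 3' minus 5' difference of beta-actin and of Gapdh in log2, and the mean log2 level of 14 macrophage and monocyte genes, by group, with mean and SD of 6 arrays. The WB arrays lie at 5.27 to 5.96 for beta-actin against 0.08 to 0.26 in TS, and the marker mean falls into separate ranges in the 3 groups.

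In tape-stripped skin the chemokine ligands lay below unstripped skin. All 20 varying ligands had a mean below NT, 12 of them fell past the threshold and none rose; of the 4 receptors, Cxcr6 and Xcr1 fell and Ccr9 rose. Over all 24 members 14 fell (58.3%) and 1 rose (4.17%), against 21.1% lower and 19.3% higher (40.4% in either direction) among the 6842 varying genes of the array. The members' median difference was -0.56, against 0.0019 for all varying genes, and the arrays of TS and NT did not overlap for 11 of 24 members (45.8%), against 26.1% of varying genes. Under quantile normalization, which made 68.8% of all called probe sets higher in TS against 49.2% as deposited, no varying ligand turned to a higher mean in TS. Markers of other tissue components moved in the same comparison: all 8 skeletal muscle genes fell (median difference -1.86), as did 3 of 4 adipocyte genes (median -1.51) and both varying B and plasma cell genes (median -3.34), while 6 of 8 keratinocyte genes (median 0.66) and 5 of 9 mast cell genes (median 0.58) rose and none of either fell. Their part in the results on chemokines was not tested.

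Among the 4 varying ligands for neutrophils, Cxcl2 and Cxcl3 fell and Cxcl1 and Cxcl5 were not called. The skin-expressed Cxcl1, Cxcl2, Cxcl3 and Cxcl5 bind Cxcr2 on neutrophils; the array's probe sets for Cxcl15 and Cxcr2 were constant. Cxcl1, Cxcl2 and Cxcl3 are neighbours on chromosome 5 and are textbook targets of NF-kB, and 1 of the 3 was not called, so the 250 bases before their start sites are shown together (RefSeq, GRCm38.p6, all on the plus strand, Cxcl3 at chr5:90785851-90786100, Cxcl2 at chr5:90903649-90903898 and Cxcl1 at chr5:90890995-90891244). Capitals mark GGAATTTCC, part of the NF-kB consensus, and the looser GGAANTTCC, searched on both strands, whose matches coincide in each of these windows.
Cxcl3: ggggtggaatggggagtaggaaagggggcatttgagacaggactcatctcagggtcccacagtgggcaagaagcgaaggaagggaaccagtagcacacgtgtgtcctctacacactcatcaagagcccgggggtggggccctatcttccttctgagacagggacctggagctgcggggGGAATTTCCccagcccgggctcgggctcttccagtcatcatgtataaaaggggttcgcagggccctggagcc
Cxcl2: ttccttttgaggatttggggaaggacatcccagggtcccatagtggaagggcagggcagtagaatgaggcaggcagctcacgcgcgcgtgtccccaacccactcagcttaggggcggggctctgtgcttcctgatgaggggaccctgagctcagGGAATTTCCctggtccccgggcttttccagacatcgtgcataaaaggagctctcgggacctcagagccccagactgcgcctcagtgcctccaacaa
Cxcl1: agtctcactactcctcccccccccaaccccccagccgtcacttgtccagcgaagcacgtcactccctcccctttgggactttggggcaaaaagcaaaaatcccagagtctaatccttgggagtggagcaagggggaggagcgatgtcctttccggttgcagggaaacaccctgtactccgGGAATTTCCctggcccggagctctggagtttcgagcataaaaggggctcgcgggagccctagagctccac
The match begins 72 bases before the start in Cxcl3, 96 in Cxcl2 and 70 in Cxcl1. GGAATTTCC occurs in 94 of 32851 such windows in the RefSeq table (0.286%) and GGAANTTCC in 267 (0.813%). Of the 35 members with a window 5 held GGAATTTCC, these 3, Cxcl10 and the constant Ccr3. The windows of the 3 genes thus carry the same letters.

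Cxcl3 had a lowest, median and highest value of 9.79, 10.30 and 11.70 in NT and of 5.39, 6.75 and 6.95 in TS. It fell by 4.07 (SE 0.45, limma adjusted p = 2.61e-05), and every TS array was below every NT array. Cxcl2 was at 8.73, 9.16 and 10.08 in NT and at 6.48, 7.12 and 7.59 in TS. Cxcl2 fell by 2.16 (SE 0.35, adjusted p = 0.000487), a 4.47-fold difference with no overlap. Cxcl1 was not called: its arrays ran from 7.69 to 8.14 in NT and from 7.36 to 8.91 in TS, a difference of -0.06 (SE 0.22, adjusted p = 1) in which the TS arrays spanned the NT range on both sides. Cxcl5, which epithelial cells make, was at 6.68 to 7.30 in NT and at 5.92 to 8.60 in TS (difference -0.22, SE 0.32, adjusted p = 0.859). Array TS 5 held the highest value of both, and without it Cxcl5 differed by -0.58 (adjusted p = 0.0154). Of the 12 neutrophil marker genes on the array 5 varied and 7 were constant. Of these 5, 1, the stefin gene Stfa2l1, rose and none fell, and their mean was 7.24 to 9.16 in NT and 8.25 to 10.31 in TS. They include S100a8 and S100a9, which stressed keratinocytes make as well, so this mean does not measure neutrophils alone.

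The group acting on monocytes and macrophages had 11 genes on the array, receptors included, and 6 of them varied, all ligands; 5 of the 6 fell and none rose. Ccl2, Ccl7 and Ccl12 are the mouse ligands of Ccr2, the receptor that brings monocytes out of the blood. Ccl2 was at 7.81, 8.39 and 8.52 in NT and at 7.49, 7.55 and 7.81 in TS, and fell by 0.69 (SE 0.11, 1.61-fold, adjusted p = 0.000564). For Ccl7 the arrays were at 8.25, 8.88 and 9.24 in NT and at 7.10, 7.61 and 8.13 in TS, a fall of 2.29-fold (log2 difference -1.20, SE 0.18, adjusted p = 0.000282). Ccl12 ran from 8.60 through a median of 9.52 to 9.71 in NT and from 7.07 through 8.14 to 9.01 in TS, and fell by 1.26 (SE 0.29, 2.40-fold, adjusted p = 0.00641). Ccl2 and Ccl7 did not overlap between the groups, whereas for Ccl12 the highest TS array reached above the lowest NT array, NT 1.

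Ccl3, Ccl6 and Ccl9 act through Ccr1 on monocytes and other myeloid cells. Ccl3 lay at 7.49, 7.74 and 7.96 in NT and at 7.10, 7.26 and 7.48 in TS, and fell by 0.47 (SE 0.09, 1.38-fold, adjusted p = 0.00179) with the highest TS array just under the lowest NT array. Ccl9 was at 11.56, 11.92 and 12.33 in NT and at 10.68, 11.27 and 11.72 in TS, an overlapping fall of 0.72 (SE 0.20, adjusted p = 0.0237) that missed the threshold without NT 2, NT 3, NT 4, TS 1 or TS 2 (adjusted p = 0.0543 to 0.0592) and when WB was left out of the model (12 arrays, adjusted p = 0.0628). Ccl6 was not called, at 11.56 to 12.77 in NT and 11.55 to 12.65 in TS (difference -0.13, SE 0.24, adjusted p = 0.935). Of the 14 macrophage and monocyte markers 10 fell in TS and 1, the scavenger receptor Cd163, rose, with a median difference of -0.57 over the list. Among them Adgre1, which encodes the F4/80 antigen, fell by 0.85 (SE 0.16, adjusted p = 0.00172) and Clec4e, a receptor for damaged cells and fungal lipids, fell by 2.88 (SE 0.23, adjusted p = 1.73e-06). Their part in the fall of the ligands was not tested.

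The group acting on activated T cells had 7 genes, 4 of them varying, and 3 fell. Cxcl9 and Cxcl10 are interferon-induced ligands of Cxcr3 and adjacent genes; their upstream windows are shown because both fell and their motif letters differ (RefSeq, GRCm38.p6, minus strand, Cxcl9 at chr5:92328080-92328329 and Cxcl10 at chr5:92348890-92349139). Capitals mark GAAANNGAA, a form of the interferon response element, GGAATTTCC with GGAANTTCC, and TGANTCA, an AP-1 form, searched on both strands and not overlapping here except for the NF-kB pair, which coincides.
Cxcl9: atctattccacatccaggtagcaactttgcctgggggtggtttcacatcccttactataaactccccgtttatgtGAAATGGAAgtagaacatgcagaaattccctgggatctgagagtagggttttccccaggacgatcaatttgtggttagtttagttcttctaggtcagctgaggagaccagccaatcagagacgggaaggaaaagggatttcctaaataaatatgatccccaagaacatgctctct
Cxcl10: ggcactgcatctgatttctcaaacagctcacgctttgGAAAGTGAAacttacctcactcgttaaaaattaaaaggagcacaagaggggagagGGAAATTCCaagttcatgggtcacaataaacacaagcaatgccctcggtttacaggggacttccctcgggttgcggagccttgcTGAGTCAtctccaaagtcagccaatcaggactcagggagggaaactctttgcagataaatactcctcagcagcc
In Cxcl10 they begin 213, 158 and 74 bases before the start, the NF-kB letters reading on the opposite strand. Cxcl9 holds GAAANNGAA alone, 175 bases before the start, which says only that the other letters are not in this window. GAAANNGAA occurs in 7.13% of all windows and TGANTCA in 6.75%; TTCNNNGAA, a STAT form found in 7.02%, was in neither gene.

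Cxcl9 was at 7.25, 7.49 and 8.80 in NT and at 6.16, 6.51 and 7.06 in TS, and fell by 1.22 (SE 0.30, adjusted p = 0.0102) with no overlap. Cxcl10 went from 6.89, 7.06 and 7.30 in NT to 6.79, 6.84 and 6.91 in TS, an overlapping difference of -0.23 (SE 0.06, adjusted p = 0.0152) that missed the threshold when WB was left out of the model (adjusted p = 0.0586). Cxcr6, a receptor of resident and effector T cells, was at 7.80, 7.90 and 8.56 in NT and at 7.24, 7.50 and 7.75 in TS. It fell by 0.56 (SE 0.14, 1.47-fold, adjusted p = 0.0114) without overlap, while its ligand Cxcl16, a chemokine anchored in the cell membrane, ran from 8.60 to 8.92 in NT and from 8.51 to 8.72 in TS and was not called (difference -0.07, SE 0.06, adjusted p = 0.571). Of 11 T cell marker genes 4 varied and 3 of them fell in TS, the mean of the 4 being 8.83 to 9.37 in NT and 8.12 to 8.47 in TS. The part of this difference in the lower Cxcr6 was not tested.

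Among 8 genes of skin-homing and type 2 T cells, only Ccl8 and Ccl22 varied. Ccl22, made mainly by dendritic cells and macrophages for T cells with Ccr4, was at 7.72, 7.87 and 8.08 in NT and at 6.97, 7.38 and 7.47 in TS, a non-overlapping fall of 0.56 (SE 0.09, 1.48-fold, adjusted p = 0.000547). Ccl8, a ligand of Ccr8 in mice, ran from 12.69 to 13.58 in NT and from 11.94 to 13.24 in TS (difference -0.75, SE 0.26, adjusted p = 0.0646). It was not called, and leaving out TS 4, its highest TS array, gave -0.92 with an adjusted p of 0.0150; without WB 4, which enters only through the shared spread, the adjusted p was 0.0308. It also passed with array weights (adjusted p = 0.0142), once dim probe sets were dropped (0.0497) and with only varying probe sets tested (0.0198). Of 12 Langerhans and dendritic cell markers 8 varied and 4 fell in TS, none rising, with means of 9.98 to 11.28 in NT and 9.23 to 10.41 in TS.

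Both eotaxins fell. Ccl11 and Ccl24 draw eosinophils through Ccr3, whose probe set was constant. Ccl24, which alternatively activated macrophages make, was at 8.88, 9.31 and 10.09 in NT and at 7.17, 7.69 and 8.45 in TS, and fell by 1.67 (SE 0.21, 3.19-fold, adjusted p = 8.15e-05). Ccl11, a product of fibroblasts, was at 8.44, 9.50 and 10.09 in NT and at 7.64, 8.14 and 8.44 in TS, and fell by 1.30 (SE 0.24, 2.46-fold, adjusted p = 0.00155). Neither gene overlapped between the groups, although the highest TS array and the lowest NT array for Ccl11 were both near 8.44. All 4 eosinophil marker genes on the array were constant, so the data hold no measure of these cells.

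The homeostatic Cxcl12, Cxcr4 and Cxcl14 and the follicle chemokine Cxcl13 were not called at their representative probe sets. Cxcl12, the stromal ligand of Cxcr4, ran from 11.46 to 11.84 in NT and from 11.37 to 12.16 in TS (difference -0.08, SE 0.12, adjusted p = 0.901), though a second probe set of the gene fell, as given further on. Cxcr4 had a difference of 0.04 (SE 0.15, adjusted p = 1). Cxcl14, which keratinocytes of intact epidermis make, differed by -0.17 (SE 0.23, adjusted p = 0.83), ranging from 8.05 to 8.60 in NT and from 7.56 to 8.75 in TS. Cxcl13, which guides B cells into follicles through Cxcr5, ran from 8.67 to 11.85 in NT and from 7.74 to 11.22 in TS (difference -0.60, SE 0.63, adjusted p = 0.729).

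Ccr9, the receptor for the gut chemokine Ccl25, was the 1 member that rose in TS. It was at 6.71, 6.77 and 6.84 in NT and at 7.0, 7.39 and 7.77 in TS, a difference of 0.61 (SE 0.10, adjusted p = 0.00049) without overlap. This rests on 1 of 5 probe sets: the other 4 were constant, and the suffix of the varying one (x_at) marks probes that may match other sequences. Xcr1, which marks dendritic cells that cross-present antigen, was at 6.88, 6.94 and 7.02 in NT and at 6.75, 6.81 and 6.90 in TS, an overlapping fall of 0.12 (SE 0.03, adjusted p = 0.0112).

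**Figure D2:**
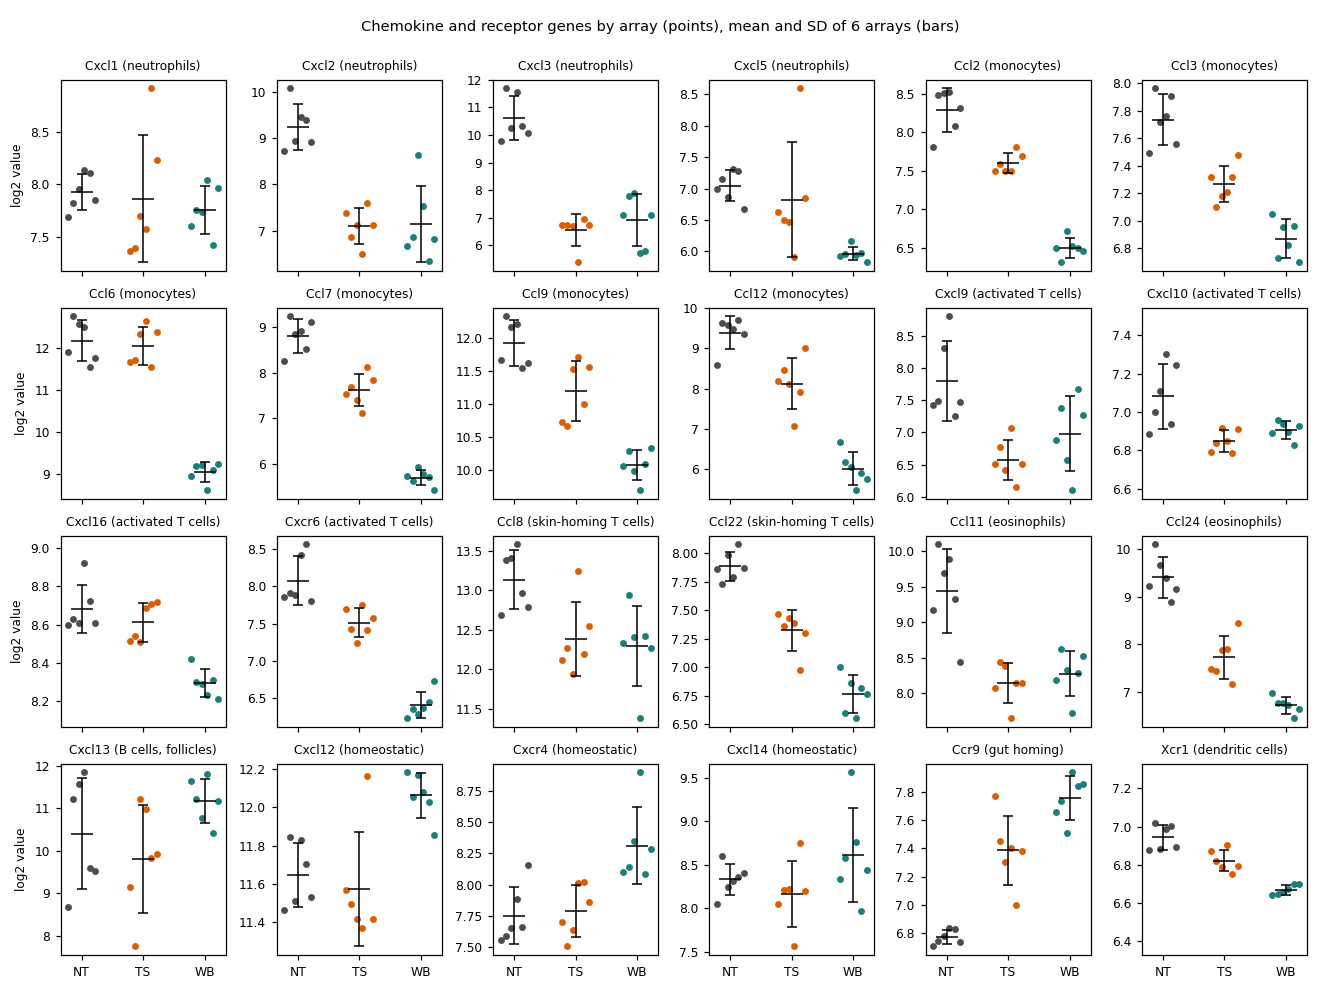
Log2 level of each of the 24 varying chemokine and receptor genes on each array of NT, TS and WB, with mean and SD of 6 arrays per group, ordered by attracted cell type. Cxcl3 drops from 9.79 to 11.70 in NT to 5.39 to 6.95 in TS, Ccl6 stays near 12 in NT and TS and is at 8.60 to 9.24 in WB, and Ccr9 steps up from NT to TS.

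In stripped skin of mice given the extract, most of the monocyte ligands were lower than in stripped skin without it, while Cxcl12, Cxcr4 and Ccr9 were higher. Of 24 members 12 were called lower (50%) and 3 higher (12.5%) in WB against TS. Here the background was high: 39.2% of all varying genes were called lower and 48.4% higher (87.7% in either direction), and 76% did not overlap, against 11 of 24 members (45.8%). The members' median difference was -0.13 and that of all varying genes 0.163. This comparison uses the same TS arrays as the one with NT, and the beta-actin 3' minus 5' difference rose by 5.53 between its groups, so what lies behind that difference and the extract cannot be told apart in it. Marker genes of some other cells were lower as well: all 8 skeletal muscle genes (median difference -4.30), 7 of 9 mast cell genes (median -1.94) and 5 of 8 fibroblast genes (median -0.82), with 1 mast cell gene and 1 fibroblast gene higher. Not every list fell: of 8 keratinocyte genes 2 were higher and 2 lower (median 0.07). Of 2 varying NK cell genes 1 was higher and none lower. The part of these markers was not tested.

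All 6 varying monocyte and macrophage ligands were lower in WB. Ccl6 was at 11.55, 12.04 and 12.65 in TS and at 8.60, 9.14 and 9.24 in WB, 8.06-fold lower (log2 difference -3.01, SE 0.24, adjusted p = 2.33e-08) and far from overlap, but its second probe set did not move, as given further on. Ccl9 was at 10.68 to 11.72 in TS and at 9.70, 10.08 and 10.34 in WB, 2.18-fold lower (log2 difference -1.13, SE 0.20, adjusted p = 0.000228). The Ccr2 ligands were under the array median in WB: Ccl2 at 6.31, 6.50 and 6.72 (difference -1.09, SE 0.11, adjusted p = 5.18e-07), Ccl7 at 5.41, 5.72 and 5.92 (difference -1.93, SE 0.18, adjusted p = 1.52e-07) and Ccl12 at 5.47, 5.98 and 6.69 (difference -2.12, SE 0.29, adjusted p = 1.16e-05). Ccl3 was at 6.70, 6.89 and 7.05 (difference -0.40, SE 0.09, adjusted p = 0.00134). None of the 6 overlapped between TS and WB, and neither did 76% of all varying genes, of which 39.2% were called lower. Of the macrophage markers 10 of 14 were lower in WB and 2, Csf1r and Lyz1, higher, with a median difference of -1.39; Adgre1 fell by 1.52 (SE 0.16, adjusted p = 7.44e-07), and the part of these markers was not tested.

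Among the ligands for neutrophils and for Cxcr3 cells, Cxcl5 was the 1 called in WB against TS. Cxcl3 was at 5.74, 7.10 and 7.89 in WB (difference from TS 0.36, SE 0.45, adjusted p = 0.622) and Cxcl2 at 6.34, 6.84 and 8.64 (difference 0.05, SE 0.35, adjusted p = 1). Cxcl1 ranged from 7.42 to 8.04 (difference -0.11, SE 0.22, adjusted p = 0.827). Cxcl5 was at 5.83, 5.96 and 6.16 in WB (difference -0.86, SE 0.32, adjusted p = 0.0366); it overlapped TS and missed the threshold without TS 6, WB 1, WB 2, WB 4, WB 5 or WB 6 (adjusted p = 0.0571 to 0.0653) and in the 12-array fit (adjusted p = 0.0971). Cxcl9 was at 6.10, 7.08 and 7.68 (difference 0.41, SE 0.30, adjusted p = 0.315) and Cxcl10 at 6.83, 6.91 and 6.96 (difference 0.06, SE 0.06, adjusted p = 0.529). Of the 5 varying neutrophil markers 3 were lower and none higher in WB against TS (median difference -0.48), with a mean of 7.78 to 9.28 in WB.

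Cxcr6 and Cxcl16 were both lower in WB. Cxcr6 was at 6.24, 6.36 and 6.73 (difference -1.11, SE 0.14, adjusted p = 5e-06) and Cxcl16 at 8.21, 8.29 and 8.42, 1.25-fold lower (log2 difference -0.32, SE 0.06, adjusted p = 0.000267), neither overlapping TS. Ccl22 was at 6.55, 6.79 and 7.0 (difference -0.55, SE 0.09, adjusted p = 9.31e-05), and only its array TS 5 reached into the WB range. Ccl8 was not called, at 11.38 to 12.94 in WB (difference -0.09, SE 0.26, adjusted p = 0.939), and turned to 0.21 under quantile normalization. Of the 4 varying T cell markers 3 were lower in WB, their mean being 7.46 to 7.70, and 6 of 8 varying Langerhans and dendritic markers were lower and 1 higher, with a mean of 7.87 to 8.46.

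Of the eotaxins, Ccl24 was called and Ccl11 was not. Ccl24 was at 6.45, 6.75 and 6.98 in WB, below all TS arrays (difference -1.0, SE 0.21, adjusted p = 0.000984), whereas Ccl11 was at 7.72, 8.30 and 8.63 (difference 0.14, SE 0.24, adjusted p = 0.768). Xcr1 was at 6.64, 6.67 and 6.70, also below all TS arrays (difference -0.15, SE 0.03, adjusted p = 0.000479).

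Cxcr4 and, at its representative probe set, its ligand Cxcl12 were higher in WB. Cxcl12 was at 11.37, 11.46 and 12.16 in TS and at 11.86, 12.07 and 12.18 in WB, 1.41-fold higher (log2 difference 0.49, SE 0.12, adjusted p = 0.00284); the overlap came from array TS 5. At its second probe set Cxcl12 was not called (log2 difference 0.02, SE 0.12, adjusted p = 1). Cxcr4 was at 7.51, 7.78 and 8.02 in TS and at 8.08, 8.21 and 8.90 in WB, 1.43-fold higher without overlap (log2 difference 0.52, SE 0.15, adjusted p = 0.0072). Ccr9 was higher again, at 7.51, 7.79 and 7.94 in WB (1.29-fold, log2 difference 0.37, SE 0.10, adjusted p = 0.00504), with overlap. Neither Cxcl13, at 10.42 to 11.80 in WB (difference 1.36, SE 0.63, adjusted p = 0.0948), nor Cxcl14, at 7.97 to 9.56 (difference 0.45, SE 0.23, adjusted p = 0.131), was called. Both passed the threshold under quantile normalization (adjusted p = 0.0279 for Cxcl13 and 0.0219 for Cxcl14) and median centring (0.0399 and 0.0473). Leaving out TS 3 for Cxcl13 (adjusted p = 0.0499) or WB 5 for Cxcl14 (0.0462) did the same. The second probe set of Cxcl13, however, was called lower in WB against TS, as given further on.

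**Figure D3:**
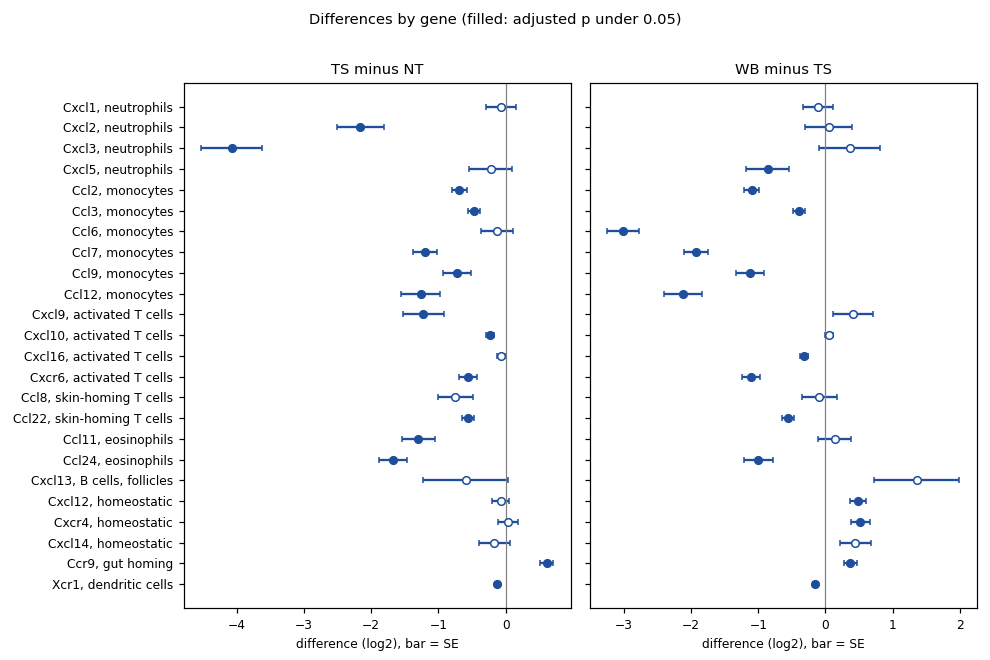
Log2 difference with SE for each of the 24 varying members, TS minus NT and WB minus TS, filled where the limma adjusted p is under 0.05. Cxcl3 and Cxcl2 reach -4.07 and -2.16 in TS minus NT with differences near 0 in WB minus TS, while Ccl6 shows the reverse, -0.13 and -3.01.

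Set directly against unstripped skin, WB had 18 members lower (75%) and 3 higher (12.5%), with 41.3% and 46.9% (88.2% in either direction) as the background among varying genes and 16 of 24 members (66.7%) not overlapping against 80.5%. The members' median was -0.97. All 6 monocyte ligands were lower at their representative probe sets, Ccl6 by 8.81-fold (log2 difference -3.14, SE 0.24, adjusted p = 1.26e-08) and Ccl9 by 3.60-fold (log2 difference -1.85, SE 0.20, adjusted p = 1.12e-06). The second probe set of Ccl6 was not called and had the opposite sign (log2 difference 0.52, SE 0.28, adjusted p = 0.146). That of Ccl9 differed by -6.30 (SE 0.24, adjusted p = 2.03e-12). Ccl8 passed in this comparison, 1.79-fold lower (log2 difference -0.84, SE 0.26, adjusted p = 0.0129), but not under quantile normalization (adjusted p = 0.118). Cxcl2, 4.32-fold lower (log2 difference -2.11, SE 0.35, adjusted p = 8.13e-05), and Ccl11, 2.23-fold lower (log2 difference -1.16, SE 0.24, adjusted p = 0.000787), were below NT. Cxcl12 (log2 difference 0.42, SE 0.12, adjusted p = 0.0087), Cxcr4 (0.56, SE 0.15, adjusted p = 0.00431) and Ccr9 (0.98, SE 0.10, adjusted p = 3.41e-07) were the 3 that were higher. Cxcr4 overlapped NT in WB and Cxcl12 did not, but the second probe set of Cxcl12 was called lower in the same comparison (log2 difference -0.40, SE 0.12, adjusted p = 0.0103).

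Of the other members called lower in WB against NT, the monocyte ligands Ccl2, Ccl3, Ccl7 and Ccl12 had WB means under the array median. Among the Ccr2 ligands the differences were -1.78 for Ccl2 (SE 0.11, adjusted p = 1.23e-09), -3.12 for Ccl7 (SE 0.18, adjusted p = 3.62e-10) and -3.38 for Ccl12 (SE 0.29, adjusted p = 4.65e-08), and Ccl3 differed by -0.87 (SE 0.09, adjusted p = 4.58e-07). The neutrophil ligands Cxcl3 and Cxcl5 differed by -3.71 (SE 0.45, adjusted p = 3.44e-06) and -1.08 (SE 0.32, adjusted p = 0.00996). Cxcr6 differed by -1.67 (SE 0.14, adjusted p = 3.72e-08), its ligand Cxcl16 by -0.39 (SE 0.06, adjusted p = 3.65e-05), and Ccl22 and Ccl24, both products of myeloid cells, by -1.12 (SE 0.09, adjusted p = 3.14e-08) and -2.67 (SE 0.21, adjusted p = 2.23e-08). Xcr1 differed by -0.27 (SE 0.03, adjusted p = 1.02e-06). Cxcl9 (-0.81, SE 0.30, adjusted p = 0.034) missed the threshold without NT 3, NT 4, WB 1, WB 3 or WB 4 (adjusted p = 0.0592 to 0.0826), and Cxcl10 (-0.18, SE 0.06, adjusted p = 0.0266) without NT 4, NT 6 or WB 5 (adjusted p = 0.0582 to 0.0652). Cxcl1, Cxcl13 and Cxcl14 were not called, with differences of -0.17 (SE 0.22), 0.77 (SE 0.63) and 0.28 (SE 0.23) and adjusted p of 0.624, 0.367 and 0.362. The second probe sets of Cxcl1 and Cxcl13 were called lower, by differences of -0.85 (SE 0.32, adjusted p = 0.0377) and -3.17 (SE 0.56, adjusted p = 0.000156).

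Several genes are read by more than 1 probe set, and these did not always move together. Of the 6 genes with a second varying probe set, both had the same sign for 5 in TS against NT, with gaps of 0.05 to 0.40 between their differences, but for 4 in WB against TS, with gaps of 0.43 to 4.40. Ccl6 was 8.06-fold lower in WB at one probe set and differed by 0.26 (SE 0.28, adjusted p = 0.547) at the other, with means of 10.46 ± 0.53 in TS and 10.72 ± 0.34 in WB. Ccl9 went the other way in size: its second probe set dropped from 10.52 ± 0.52 to 5.00 ± 0.12 (difference -5.52, SE 0.24, adjusted p = 1.19e-11) where the first dropped by 1.13. For Cxcl13 the second probe set was called lower in WB (difference -2.51, SE 0.56, adjusted p = 0.00131) while the first had a difference of 1.36. Cxcl12 read 0.49 higher at one probe set and 0.02 (adjusted p = 1) at the other. In TS against NT that second Cxcl12 probe set fell by 0.42 (SE 0.12, adjusted p = 0.0235) with no overlap. Cxcl16 kept its direction (-0.75, SE 0.08, adjusted p = 8e-07, against -0.32), and Cxcl1 was not called at either (-0.11 and -0.70, the second with SE 0.32 and adjusted p = 0.0887). In WB against NT the signs were the same for 3 genes and opposite for 3, with gaps of 0.50 to 4.45, and for Cxcl12 both probe sets were called, in opposite directions. The size in WB against TS thus differed by at least 0.43 between the probe sets of each of the 6 genes, and the part of the beta-actin difference in this was not tested. Ccr2, constant at its representative probe set, had another that varied: it was 7.74 ± 0.30 in NT, 7.18 ± 0.12 in TS and 6.18 ± 0.09 in WB, and fell by 0.56 in TS (SE 0.11, adjusted p = 0.00258) and by 1.01 from TS to WB (SE 0.11, adjusted p = 1.38e-06), both without overlap. All other Ccr2 probe sets were constant. The varying one had the lowest mean among them, and its WB mean lay under the array median.

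**Figure D4:**
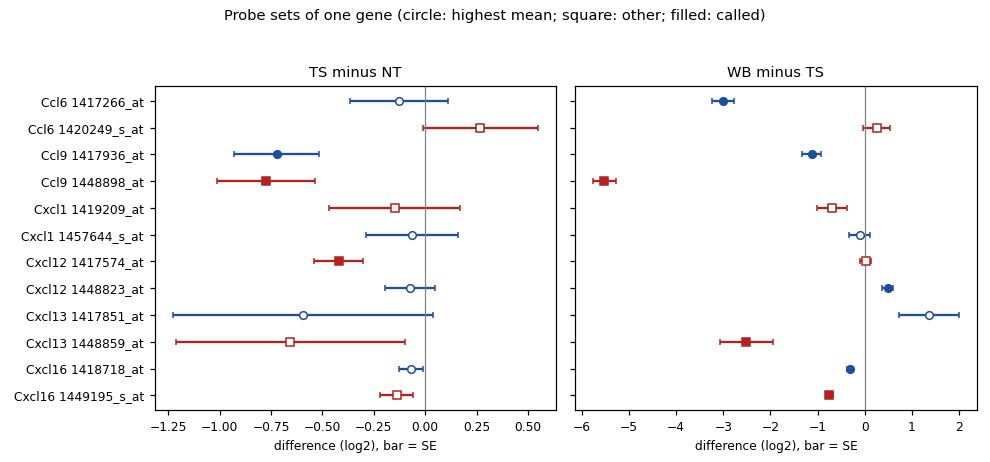
Log2 differences of the 6 genes with a pair of varying probe sets, the circle being the probe set with the highest mean and the square the other, filled where called. In TS minus NT each pair lies within 0.40, whereas in WB minus TS Ccl6 has -3.01 and 0.26 and Ccl9 has -1.13 and -5.52.

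Chemokine genes stand in clusters, and neighbours were not always called alike, although all 20 varying ligands had a mean below NT in TS. Over all varying genes 21.1% were lower in TS against NT and 39.2% lower in WB against TS. In RefSeq gene order, with gaps under 1000 kb, Ccl2, Ccl7, Ccl11, Ccl12, Ccl8 and Ccl1 stand together on chromosome 11; of the 5 that varied 4 fell in TS, and 3 (Ccl2, Ccl7 and Ccl12) were lower in WB than in TS. A further run on that chromosome, Ccl5, Ccl9, Ccl6, Ccl3 and Ccl4, had 3 varying genes, 2 lower in TS and 3 lower in WB against TS. On chromosome 5, Cxcl5, Cxcl3, Cxcl15, Cxcl1 and Cxcl2 had 4 varying genes, 2 lower in TS and 1, Cxcl5, lower in WB against TS. On chromosome 9, Ccr9 stood in 1 run with Cxcr6 and Xcr1, and moved opposite to them in both comparisons.

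Among relatives outside the symbol rule, 5 of 9 fell in TS and none rose, against 21.1% lower and 19.3% higher among all varying genes. Ppbp, a platelet chemokine that acts on neutrophils, fell by 0.84 (SE 0.10, adjusted p = 3.09e-05), Pf4, also a platelet product, by 0.55 (SE 0.11, adjusted p = 0.00196) and Ccl27a, the keratinocyte chemokine for skin-homing T cells, by 0.36 (SE 0.10, adjusted p = 0.0184). In WB against TS, 5 were lower, Ccl27a among them (difference -0.82, SE 0.10, adjusted p = 2.55e-06), and 2, Pf4 and Cklf, higher. Over all varying genes 39.2% were lower and 48.4% higher in that comparison. Of the atypical receptors, which bind chemokines without G protein signalling, 5 varied. In TS 2 fell and none rose, and in WB against TS 3 were higher and 1 lower, beside the same shares of all varying genes. Ackr3, which scavenges Cxcl12, fell by 1.05 in TS (SE 0.32, adjusted p = 0.0362) and was 1.13 higher in WB than in TS (SE 0.32, adjusted p = 0.00838). Ackr4, a scavenger of Ccl19, Ccl21 and Ccl25, was 1.84 higher in WB (SE 0.12, adjusted p = 1.8e-09) and was not called in TS against NT (difference 0.13, SE 0.12, adjusted p = 0.62).

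Of 29 genes of the signalling path on the array 18 varied; 2 rose and 8 fell in TS, and 5 were higher and 9 lower in WB against TS; over all varying genes 40.4% were called in the first comparison and 87.7% in the second. Rac2, the GTPase of leukocyte movement, fell by 0.73 (SE 0.15, adjusted p = 0.0027) and Dock2, its activator in leukocytes, by 0.48 (SE 0.09, adjusted p = 0.00215), while Gnai3, an inhibitory G protein subunit found in most cells, rose by 0.29 (SE 0.07, adjusted p = 0.00979). Of 28 inducers of chemokine genes 18 varied. In TS 4 rose and 3 fell, near the background share in each direction. In WB against TS 6 were higher and 10 lower, near the background share only when counted in either direction. Over all varying genes 19.3% rose and 21.1% fell in TS, and 48.4% were higher and 39.2% lower in WB against TS. The inducers' median difference was 0.08 in TS against NT and -0.70 in WB against TS, with 0.0019 and 0.163 for all varying genes. Il1f9, an epidermal cytokine gene of the interleukin 1 family, rose by 1.75 in TS (SE 0.16, adjusted p = 5.51e-06), as did Zfp36, which encodes a protein that speeds the decay of cytokine mRNA (0.92, SE 0.22, adjusted p = 0.00891). Irf1, an interferon-induced transcription factor that acts on Cxcl9 and Cxcl10, fell by 0.50 (SE 0.07, adjusted p = 9.67e-05), and Relb, an NF-kB subunit, by 0.42 (SE 0.08, adjusted p = 0.00293). Nfkbia, the NF-kB inhibitor, was not called in TS (difference 0.08, SE 0.21, adjusted p = 1) and was 1.17 higher in WB than in TS (SE 0.21, adjusted p = 0.000162).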

How the data were processed

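Total RNA of mouse dorsal skin (18 samples: NT, TS and WB, 6 each, grouped by the labelled treatment) was measured on Affymetrix mouse arrays, as the labels' protocols say. The authors deposited 1 log2 value per probe set and array; how these were summarised and normalized, and the log base, are not given in the sources used here. Its values run from 2.93 to 19.04 over 45101 probe sets, of which 64 controls were left out; 33091 of the other 45037 ranged by under 0.01. Such constant values can hide real differences. The table holds no background measure, so dim genes are uncertain in size, and array number limits precision. Scanner files were not used here. No batch is labelled.

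All 18 arrays were fitted without covariates in limma 3.58.1 (R 4.3.3), checked on simulated data. Every varying member was named, ordered by attracted cell type, and those called were given by array. Members and lists, including marker and pathway lists, and the motifs, were chosen with earlier results or sequences of these data known. Gene symbols come from the platform annotation and promoter sequences from RefSeq (GRCm38.p6), matched by symbol for 35 of 48 members. Alternatives covered scaling, array weights, filters, probe set choice, minimum difference, a replicate block and each array left out.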

Additional observations from a re-analysis of the deposited data

Results flagged for a closer look

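Of 78 groups of 6 arrays, over the 24 members and the control differences, 7 held a sample far from the other 5 by Dixon's criterion, which chance alone passes in a small share of groups. Array TS 5 accounted for 3 of them: it was highest for Cxcl12 at 12.16 (next 11.57) and for Cxcl5 at 8.60 (next 6.84), and lowest for Ccl22 at 6.97 (next 7.30). Cxcl3 was lowest on TS 4 at 5.39, with the other TS arrays from 6.69 up. Ccl12 was lowest on NT 1 at 8.60 (next 9.36), and Cxcr4 was highest on WB 4 at 8.90 (next 8.35). The Gapdh 3' minus 5' difference was highest on WB 2 at 4.41 (next 3.71).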

How the results depend on the processing

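Each comparison was repeated under 10 alternatives and with each of the 18 arrays left out. Probe sets called in TS against NT, 4551 as reported, were 7020 with no minimum difference and 1417 with a minimum of 1.5-fold. In WB against TS, 10612 became 39795 under quantile normalization, 43993 under median centring and 21055 with no minimum difference. In WB against NT, 10667 became 41328, 43993 and 21749. The share of calls that were higher, 49.2%, 53.1% and 51.2% in the 3 comparisons, was 68.8%, 88.1% and 88.3% under quantile normalization and 49.8%, 88.8% and 88.3% under median centring. The median of all varying probe sets was shifted in WB against TS by 0.093 as deposited, 0.189 under quantile normalization and 0.129 under median centring. Members called higher in WB against TS, 3 as reported, were 5 under either scaling and 0 at 1.5-fold; members lower in TS against NT were 9 at 1.5-fold instead of 14, and members higher in WB against NT were 1 instead of 3. With 1 array left out, calls over all probe sets were 4031 to 4660, 10482 to 10619 and 10539 to 10689; members called higher and lower were 1 and 13 to 15, 3 to 4 and 11 to 12, and 3 and 16 to 18. The Gapdh difference of 0.15 between TS and NT (adjusted p = 0.0476) was 0.109 to 0.180, with adjusted p from 0.0195 to 0.108.

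Of the genes called, 9 of 15, 7 of 15 and 14 of 21 were called in every alternative that tested them; the filter on dim probe sets removed Cxcl5, Cxcl10 and Xcr1. Several signs turned. In WB against TS, Ccl8 was 0.21 under quantile normalization, 0.052 with array weights and -0.22 to 0.090 with 1 array left out (above 0 without TS 4 or WB 4); Cxcl1 was 0.0015 under quantile normalization and -0.21 to 0.10 with 1 array left out (above 0 without TS 5); Cxcl2 was -0.16 with array weights and -0.25 to 0.21 with 1 array left out (below 0 without TS 4, WB 3 or WB 4). In TS against NT, Cxcr4 was -0.0089 with array weights and -0.0081 to 0.12 with 1 array left out (below 0 without NT 1, TS 4 or TS 5), and Cxcl1 was -0.28 to 0.035 (above 0 without TS 1 or TS 2). Averaging the varying probe sets of a gene gave 0.070 for Ccl6 in TS against NT, and -0.57 and -1.20 for Cxcl13 in WB against TS and NT. It also called Cxcl12 lower in TS (-0.25, adjusted p = 0.0458) and lost it in WB against NT (0.0072, adjusted p = 1). Cxcl9 and Cxcl10 in WB against NT lost their calls in the fit of 12 arrays (adjusted p = 0.0806 and 0.0702). The cause of these changes was not tested.

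Whether equal replicate numbers mark paired samples was not tested. Deviations of same-numbered arrays correlated at -0.13 to 0.13, -0.27 to 0.05 and -0.05 to 0.14, and 4, 0 and 6 of 12 arrays correlated best with their own number. With the replicate number as a block, 4171, 10510 and 10592 probe sets were called, and members higher and lower were 1 and 13, 3 and 12, and 3 and 17; Ccl9 in TS against NT (adjusted p = 0.0536) and Cxcl9 in WB against NT (adjusted p = 0.0868) lost their calls.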

Other observations

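Array TS 5 had the highest TS value for 9 of the 24 members, Ccl2, Ccl7, Cxcl1, Cxcl2, Cxcl3, Cxcl5, Cxcl12, Cxcl14 and Cxcr4, and the lowest for 7 others. On the same array the cytokine gene Il6 was at 8.47, against 6.09 to 7.60 on the other TS arrays, and Il1b at 9.33, against 7.34 to 8.31. The alarmin genes S100a8 and S100a9, of neutrophils and stressed keratinocytes, were at 12.56 and 12.92 there. On the other TS arrays S100a8 was at 8.74 to 11.22 and S100a9 at 8.27 to 11.34. High values were not limited to TS 5: both were near 12 on the unstripped NT 4 (12.03 and 12.08), and S100a8 was at 12.29 on WB 3. Cxcl1 read 8.91 and 9.25 on its pair of probe sets on TS 5.

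Among unstripped skin, NT 1 held the lowest value for 16 of 24 members, NT 2 the highest for 11 and NT 4 the highest for 9. NT 2, NT 3 and NT 4 were the 3 highest NT arrays for 8 members (33.3%: Ccl2, Ccl6, Ccl8, Ccl9, Ccl11, Ccl24, Cxcl9 and Cxcl13), against 833 of 6842 varying genes (12.2%). Ackr3, the scavenging receptor for Cxcl12, ran from 8.76 to 10.26 in NT, from 8.33 to 9.10 in TS and from 9.0 to 10.97 in WB.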
